A study of Mus musculus with 31 samples.

Results

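Regulatory T cells (Tregs) of the spleen of mice injected with phosphate-buffered saline (PBS) were profiled by ATAC-seq in 12 libraries, of 31 in the whole series. They are the control arm of a study of interleukin-2 signalling, and were chosen as every library labelled PBS. The cells were sorted from RFP-FoxP3 reporter mice on the C57BL/6 strain after 100 µL of PBS, with no cytokine. The collection times were 0.75, 16, 72 and 168 h after injection, with 3 libraries each. No genotype other than the reporter, no age and no uninjected mice are given in the labels, so the vehicle and its injection are shared by every group. The sort relies on the reporter, and the labels do not say whether the libraries came from separate mice, so that p-values measure the spread between libraries. Each time carries its own date within the sample identifiers, so that time and date cannot be told apart. At 16 h the columns could be tied to the group but not to single samples, and the libraries carry the names c1, c2 and c3. At 168 h the labels number them 1, 2 and 4. The titles at 168 h, and at no other time, also name 2 runs, so this cannot be told apart from that time either.

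ATAC-seq cuts DNA with the transposase Tn5 wherever it is not wrapped in nucleosomes or otherwise shielded, so that a pile of reads marks open chromatin. Promoters of genes in use, and enhancers bound by transcription factors, are the usual sites. Tregs are CD4 T cells that restrain immune responses. They depend on the transcription factor Foxp3, and on interleukin-2 taken up through the high-affinity receptor chain CD25, the product of Il2ra. Resting Tregs of the spleen share genes such as Ccr7 and Lef1 with other resting T cells.

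Counts of 104979 peaks were analysed. Totals of the 12 libraries were between 7.39 and 59.6 M counts (M, mega). Openness is used below for the counts per kb of peak and per M counts, where the library total leaves out the single largest peak. Unless another n is given, an openness is the mean ± SD over the 12 libraries (n = 12). The peaks were defined by the authors over the series and not over the PBS libraries alone. Their overlaps left 73159 separate regions. Of the peaks, 98187 had at least 90% of their 31-base words at a single place in the GRCm38 genome, and these are meant by well-mapped peaks below. That limit was set after the data were seen, because the looser limit of 50% left peaks of repeated sequence at the top of the ranking.

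Promoters were the most open class. Over well-mapped peaks the median openness was 15.4 for the 27602 peaks that the deposited annotation labels promoter. The medians were 8.65 in exons, 8.57 in introns, 8.39 at the 3' end of genes and 7.98 between genes. In the single libraries the promoter median ranged from 12.7 to 18.5 and the intergenic median from 6.13 to 10.7. The promoter median was above the intergenic one in all 12 libraries, by 1.36-fold in 168 h replicate 1 to 3.02-fold in 72 h replicate 3. Those 2 libraries also had the smallest and the largest total of counts, 7.39 and 59.6 M, and the part of depth in this ratio was not tested. Promoter peaks reached an openness of 344, against 175 between genes, 126 in introns, 113 in exons and 98.6 at the 3' end. The 1000 most open well-mapped peaks held 914 promoter, 41 intron, 35 intergenic, 6 3' end and 4 exon peaks, and they formed 788 separate regions. Promoter-labelled peaks made up 28.1% of the well-mapped peaks and 39.6% of their summed width.

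**Figure D1:**
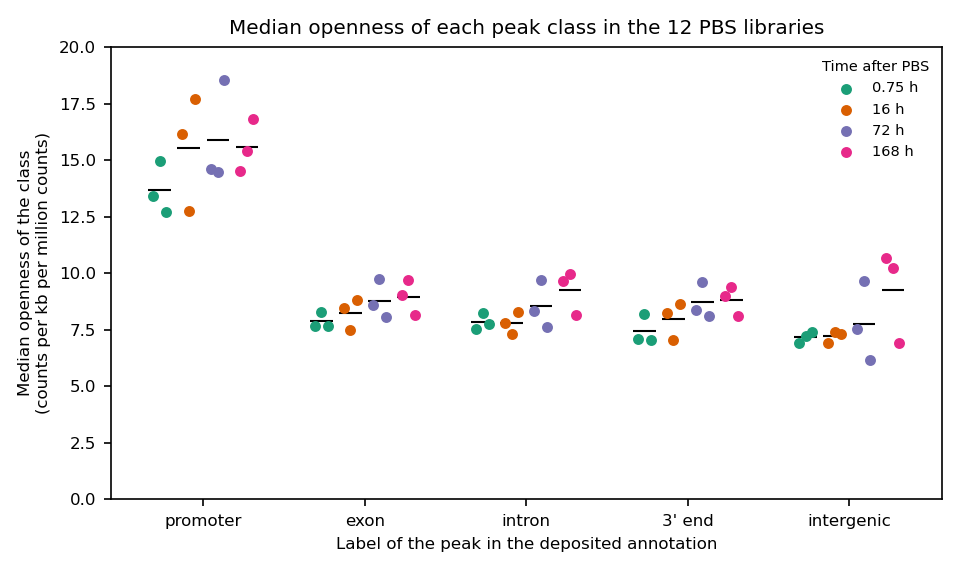
Openness by peak label in each of the 12 PBS libraries, with the median over well-mapped peaks of each label on the vertical axis in counts per kb per M counts, the collection time marked by colour and a bar at the mean of the 3 libraries of a time. The promoter medians, 12.7 to 18.5, lie above the intergenic medians of the same library in every library.

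The most open well-mapped promoter lay between Tmx2, a thioredoxin-like membrane protein, and Med19, a subunit of the Mediator complex, at chr2:84677991-84678485. Its openness was 367, 282 and 346 at 0.75 h, 292, 220 and 330 at 16 h, 406, 473 and 365 at 72 h, and 332, 357 and 360 at 168 h, a mean of 344 ± 63.2. The 72 h libraries were the highest by their mean and the 16 h libraries the lowest, and no contrast of neighbouring times passed the test. Next came the peak shared by Kbtbd3 and Aasdhppt, which encodes the enzyme that loads acyl carrier proteins with phosphopantetheine, with 274 ± 28.9. The peak shared by Serpini1, the gene of neuroserpin, and Pdcd10, at chr3:75556761-75557778, had 273 ± 26.7. Its libraries lay between 234 and 321, with a median of 269. Hjurp, the chaperone of the centromeric histone, shared a peak of 234 ± 34.4 with Trpm8.

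Zfp317, a zinc finger gene, had 224 ± 34.6, and M6pr, a mannose 6-phosphate receptor that carries enzymes to lysosomes, had 210 ± 36.6. Cblb, a ubiquitin ligase that restrains T cell activation, had 204 ± 31.5 at chr16:52030933-52031832. The aminopeptidase gene Lnpep had 203 ± 31.4 and a peak shared by Idi1, of the cholesterol pathway, and Gm48574 had 202 ± 43.6. Mon1b, of endosome fusion, had 199 ± 30.9 and the repressor gene Hbp1 had 198 ± 31.8. Cblb also carried an open intron peak at chr16:52147106-52147931, with an openness of 80.6 ± 14.8.

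Sequence upstream of 3 of these start sites is shown beside one of the least open, that of Gzmb, the gene of the cytotoxic protease granzyme B. The 3 are examples that skip others of the ranking above, such as Kbtbd3 and Hjurp, so their matches do not stand for the most open promoters as a set. The openness of Gzmb was 3.19 ± 1.76. The 250 bases before the RefSeq start site of each gene (GRCm38) are given 5′ to 3′ on the strand of the gene, with matches to the searched motif letters in capitals. Med19 lies on the plus strand at chr2:84678152-84678401, Serpini1 on the plus strand at chr3:75557243-75557492, Mon1b on the plus strand at chr8:113635336-113635585 and Gzmb on the minus strand at chr14:56262335-56262584.
Med19: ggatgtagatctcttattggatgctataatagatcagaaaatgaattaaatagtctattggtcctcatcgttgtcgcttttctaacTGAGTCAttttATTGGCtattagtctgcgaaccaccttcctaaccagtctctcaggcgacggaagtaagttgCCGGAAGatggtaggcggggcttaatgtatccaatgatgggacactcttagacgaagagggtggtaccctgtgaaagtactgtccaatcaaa
Serpini1: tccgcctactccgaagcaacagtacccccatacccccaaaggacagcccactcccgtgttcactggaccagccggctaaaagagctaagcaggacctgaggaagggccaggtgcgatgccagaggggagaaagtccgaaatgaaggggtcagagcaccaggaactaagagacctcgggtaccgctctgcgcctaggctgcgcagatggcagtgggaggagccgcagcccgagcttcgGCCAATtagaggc
Mon1b: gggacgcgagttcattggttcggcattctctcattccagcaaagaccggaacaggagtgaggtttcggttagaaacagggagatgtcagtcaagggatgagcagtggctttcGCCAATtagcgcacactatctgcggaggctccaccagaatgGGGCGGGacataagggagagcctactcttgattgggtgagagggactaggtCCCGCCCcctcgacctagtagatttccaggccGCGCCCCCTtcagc
Gzmb: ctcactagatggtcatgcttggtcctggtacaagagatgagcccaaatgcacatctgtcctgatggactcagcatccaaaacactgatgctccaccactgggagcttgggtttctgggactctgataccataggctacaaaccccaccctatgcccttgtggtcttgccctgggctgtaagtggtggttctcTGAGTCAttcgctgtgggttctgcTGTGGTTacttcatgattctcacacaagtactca
The capitals in Med19 mark, in order, an AP-1 match (TGANTCA), an NFY match (GCCAAT on the other strand) and an ETS match (CCGGAAG). Serpini1 holds 1 NFY match. Mon1b holds an NFY match, 2 SP/KLF matches (GGGCGGG, the second on the other strand) and a match to part of the CTCF core (AGGNGGCGC on the other strand). In Gzmb the capitals mark an AP-1 match and a RUNX match (TGTGGTT). Of 32851 RefSeq upstream windows of the same length, 13.5% held NFY, 23.4% SP/KLF, 6.91% ETS, 6.75% AP-1, 4.40% RUNX and 2.74% CTCF letters.

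Motif letters differed along the ranking. They were counted on both strands in 300 bases at the centre of each well-mapped peak. Among promoter-labelled peaks, the SP/KLF letters stood in 47.8% of the most open 10% (2760 peaks), in 25.5% of the least open 10% and in 33.6% of all. The NFY letters stood in 24.3%, 8.55% and 12.2%. The ETS letters stood in 19.1%, 4.71% and 11.6%. For YY1 (AAGATGGC) the shares were 5.29%, 1.56% and 3.39%, and for NRF1 (CGCATGCG) 2.54%, 0.72% and 1.85%. AP-1 and RUNX letters ran the other way, with 2.75%, 8.33% and 5.43% for AP-1 and 3.55%, 7.17% and 5.14% for RUNX. These are descriptions without a test, since overlapping peaks share sequence. GC content moved with them. The median GC content of the window was 65.0% in the most open promoters and 56.0% in the least open, and the median number of CpG was 26 and 9. The median distance from the peak centre to a start site was 78 bases in the most open promoters and 221 in the least open. Their median widths were 957 and 397 bases. The parts of base composition, distance and width in the motif shares were not tested. Peaks assigned to more than 1 gene were also more frequent, at 31.6% of the most open, 15.4% of the least open and 22.3% of all promoter peaks.

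Away from promoters, the letters of several motifs, RUNX and CTCF among them, differed in direction from the promoter peaks. Over the peaks of the other 4 labels, the RUNX letters, those of a family that directs T cell development, stood in 13.4% of the most open 10% (7058 peaks), 10.2% of the least open 10% and 11.1% of all. The CTCF letters stood in 3.36%, 1.50% and 3.00%, against 5.58%, 6.09% and 5.88% among promoter peaks. The NFY, YY1 and NRF1 letters were not more frequent in the most open 10% than in the least open 10% here. The shares were 8.81%, 8.95% and 8.86% for NFY, 1.16%, 1.60% and 1.61% for YY1, and 0.17%, 0.21% and 0.15% for NRF1. E-box (CAGCTG) and FOX (TGTTTAC) letters also differed in direction between both kinds of peak. The SP/KLF, ETS, STAT, AP-1 and KAISO letters ran the same way in both. The SP/KLF letters stood in 6.96%, 4.53% and 4.56%, and the ETS letters in 3.83%, 2.28% and 2.72%. The STAT letters (TTCNNNGAA), the element read by STAT5 and its relatives, stood in 11.5%, 16.4% and 12.1%, and among promoter peaks in 5.83%, 8.37% and 7.03%. The AP-1 letters stood in 11.0%, 12.1% and 11.9%. A KAISO core (CTCGCGAG) was rare, with 0.35%, 0.01% and 0.08%.

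The most open well-mapped peaks without a promoter label lay near Gm18999 (175 ± 48.6) and Gm49608 (151 ± 26.2), both between genes. An intron of Epc2, of the enhancer of polycomb family, at chr2:49452806-49453138 had 126 ± 38.0. Its libraries had 108, 86.0 and 92.6 at 0.75 h, 114, 64.9 and 113 at 16 h, 187, 176 and 160 at 72 h, and 147, 114 and 156 at 168 h. All 72 h libraries were above all 0.75 h and 16 h libraries, but the 72 h minus 16 h difference of 0.74 ± 0.22 (log2, SE) had an adjusted p of 0.76 in edgeR's quasi-likelihood test. This peak lies 1486 bases from an annotated start site. Its first 300 bases, chr2:49452806-49453105 on the plus strand of GRCm38, are printed because they hold 3 NFY matches. The NFY letters were more frequent in the most open than in the least open promoter peaks, but not among the other labels.
Epc2 intron: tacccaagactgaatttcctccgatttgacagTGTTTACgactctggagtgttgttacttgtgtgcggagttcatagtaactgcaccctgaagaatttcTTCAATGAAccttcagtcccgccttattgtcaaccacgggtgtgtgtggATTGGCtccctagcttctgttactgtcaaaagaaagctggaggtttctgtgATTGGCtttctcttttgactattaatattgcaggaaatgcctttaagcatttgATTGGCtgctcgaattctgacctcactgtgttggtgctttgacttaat
The capitals mark, in order, a FOX match (TGTTTAC), a STAT match and the 3 NFY matches on the other strand. An exon of the small GTPase gene Rap2b had 113 ± 11.9 and an intron of Dthd1 had 110 ± 22.8.

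Under the looser limit of 50% unique words the ranking was led by other peaks. The promoter-labelled peaks of Gm10801 and Gm21738 had an openness of 27952 and 14469, and an intron peak of Chl1 had 69060. The promoter peaks of Tmx2 with Med19, Kbtbd3 with Aasdhppt and Serpini1 with Pdcd10, described above, were in that ranking too. Its remaining promoter peaks were those of BC002059, Gm27940, Gm31793, Gm5165 and Gm42418. Among the other labels the remaining peaks were those of Gm10801, Pak3, Gm33838, Dpy19l2, Gm5110, Gm21738, Gm49817, BC002059 and Cldn34d. The 2094 peaks under that limit were ranked apart. Of these, the one with the most counts covers Gm10222 and its neighbours at chr1:24611561-24615794. It took between 16.8% and 32.0% of each PBS library, and 98.7% of its 31-base words also occur in the mitochondrial genome. After it came the peaks of Gm10800, Myo3a with Gm13340, Gm47397, and Myo3a with Gm13340 and Gm13341. Peaks outside the well-mapped set held 30.4% to 54.9% of the counts of a library, so the figures for named genes rest on the other counts.

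The least open promoter-labelled peaks had almost no counts after PBS. Those of Ccdc162, Gm48122, Pde4a, Arhgef4 and Ocrl had a mean openness between 0.24 and 0.62, and each was at 0 in at least 1 library. Among other labels, intron peaks of Phf8, Clcn5 and Rbm6 had no count in any of the 12 libraries. Peaks of Gm24038 and Cfap206 had a count in 1 library only. Such peaks can have been called in libraries of the treated groups.

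All markers fixed for Tregs had peaks, at unequal levels. Foxp3, the lineage factor of Tregs, was assigned 2 well-mapped peaks. The peak labelled promoter, chrX:7574037-7574997, is shared with Ppp1r3f, Gm36995 and Flicr, and its centre lies 25 bases from the start site of Flicr, a noncoding RNA. Its openness was 22.4 ± 5.21, with libraries between 15.5 and 32.4. The RefSeq start sites of Foxp3 lie further along the chromosome, and no peak of the table overlapped the promoter windows there. The second peak, chrX:7583723-7584442, lies within an intron, 2191 bases from a Foxp3 start site. Its openness was 22.7, 17.6 and 14.6 at 0.75 h, 24.4, 10.4 and 15.4 at 16 h, 18.5, 20.5 and 33.7 at 72 h, and 16.5, 16.5 and 28.2 at 168 h. The times overlapped throughout.

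A stretch of 300 bases of that intron peak, chrX:7583912-7584211 on the plus strand of GRCm38, are shown because Foxp3 introns are known for CpG sites that lose methylation in stable Tregs. The 11 CpG of the stretch are in capitals, of 14 in the whole peak.
Foxp3 intron: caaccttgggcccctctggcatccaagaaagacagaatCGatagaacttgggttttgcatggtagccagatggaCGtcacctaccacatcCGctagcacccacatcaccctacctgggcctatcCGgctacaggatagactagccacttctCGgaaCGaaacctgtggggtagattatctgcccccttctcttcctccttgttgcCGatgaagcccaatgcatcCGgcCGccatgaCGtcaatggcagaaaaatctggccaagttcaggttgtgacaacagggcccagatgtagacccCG
The median intron peak held 1.11 CpG per 100 bases, against 5.68 for promoter peaks. Methylation was not measured here.

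Genes of Treg surface receptors showed promoter peaks of unequal openness. Ctla4, the inhibitory receptor that strips CD80 and CD86 from other cells, had a promoter openness of 43.3, 43.4 and 36.4 at 0.75 h, 49.9, 23.7 and 42.7 at 16 h, 48.3, 47.8 and 64.3 at 72 h, and 42.5, 39.2 and 58.4 at 168 h. That is a mean of 45.0 ± 10.3, and the times overlapped. A peak at the 3' end of Ctla4, chr1:60913192-60913800, had 31.8 ± 9.42. The promoter of Il2ra had 20.6 ± 6.42 and its most open intron peak, chr2:11653174-11653905, had 26.3 ± 5.53. Ikzf2, the gene of the factor Helios, had 27.2 ± 12.3 at a promoter peak and 39.7 ± 11.8 in an intron. Tnfrsf18, the gene of the receptor GITR, had a promoter openness of 13.3 ± 5.48. For the general T cell genes Cd4 and Cd3e it was 10.4 ± 5.07 and 10.4 ± 4.19, near the lower quartile of all genes, 10.1. That is also close to the median of the myeloid list below, 10.4, which rests on 5 of 16 genes.

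By the deposited labels, the 17 genes of the Treg identity list all had a well-mapped promoter peak, which for Foxp3 is the shared peak near Flicr. Their median openness was 22.6, and 13 of them were above 19.3, the median over all 15991 genes with such a peak. The value of a gene is that of its most open such peak, so genes with more peaks have more to choose from. Rpl35 had 16 well-mapped peaks in 1 region, and Gzmb had 1 peak. The quartiles over all genes were 10.1 and 34.9. The highest value, 54.3, was that of a peak shared by Entpd1, which encodes the ATP-degrading ectoenzyme CD39, and Tctn3, whose start site was the nearest at 10 bases. Ctla4 followed. Tnfrsf4 and Ikzf4 were lowest, at 9.18 ± 2.75 and 7.97 ± 2.62, but a peak of Ikzf4 without a promoter label had 24.8 ± 7.91. The 14 resting and lymphoid-homing genes had a median of 23.0. Klf2, a factor that drives expression of homing receptors, had 37.6 ± 11.1 and the chromatin organiser Satb1 had 29.7 ± 9.57. Lef1, a factor of naive T cells, had 28.7 ± 6.87 at its promoter and 31.7 ± 9.50 in an intron. Bcl2, a survival gene, had 25.2 ± 6.87 and 28.6 ± 6.99. Ccr7, which guides cells to lymph nodes, had 16.5 ± 6.82, with libraries from 6.88 to 31.5. Tcf7 and Cd27 were the lowest of that list, at 10.8 ± 3.95 and 9.64 ± 3.41.

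Genes of effector Tregs covered a wide range. Of 18 on the list 16 had a promoter peak, with a median of 19.3. Gata3 had 59.9 ± 12.0 and Irf4 had 45.3 ± 16.9, both factors of effector differentiation. Klrg1, a receptor of terminally differentiated cells, had 3.00 ± 3.00, close to the 3.19 of Gzmb, and no well-mapped promoter peak was listed for Il10 or Pparg. Under other labels, Il10 had 8 well-mapped regions, the most open at 21.5 ± 4.73. The only peak of Pparg had 4.39 ± 2.47. In the IL-2 receptor and STAT5 response list all 19 genes had one, with a median of 18.2. Socs1, a feedback inhibitor of cytokine receptors, had 63.8 ± 16.4 and the survival gene Bcl2l1 had 51.7 ± 8.70. Il2, a gene that Tregs keep silent, was lowest with 6.94 ± 1.42, after Osm with 9.10 ± 5.14.

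The AP-1 and immediate early list held some of the most open promoters of any list. Its median over 17 genes was 26.4. Egr2, a factor induced by antigen receptor signals, had 92.4 ± 18.7 and Jun had 89.4 ± 14.8, whereas Ier3 had 4.91 ± 1.74. The T cell receptor list had a median of 19.1 over 20 of 22 genes, from 40.5 ± 11.1 for Nfatc3 and 39.6 ± 11.8 for Fyn to 5.91 ± 1.86 for the adaptor Lcp2. The interferon list had a median of 17.7 over 10 of 14 genes, led by Rsad2 with 29.4 ± 6.46.

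Genes of other helper lineages were less open by their median, 14.3 over 12 of 17 genes. Bcl6, of follicular helper cells, and Stat3 had 35.1 ± 10.5 and 34.2 ± 11.5. Il4, a Th2 cytokine, had the lowest value of the list, 2.41 ± 1.88. Il5, Il13, Il17a, Il17f and Il21 had no well-mapped promoter peak in the table. Under other labels, the peaks of Il5, Il13, Il17a and Il21 had an openness from 0.92 to 5.96. Ifng had 5.83 ± 2.84 at its promoter but 35.9 ± 7.38 at its most open peak. Ribosomal protein genes and constitutive genes, which every cell uses, had medians of 29.3 (19 of 22 genes) and 27.9 (17 of 18). Rpl35 had 75.5 ± 12.7 and Tbp, the TATA-binding protein gene, 74.3 ± 14.8.

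**Figure D2:**
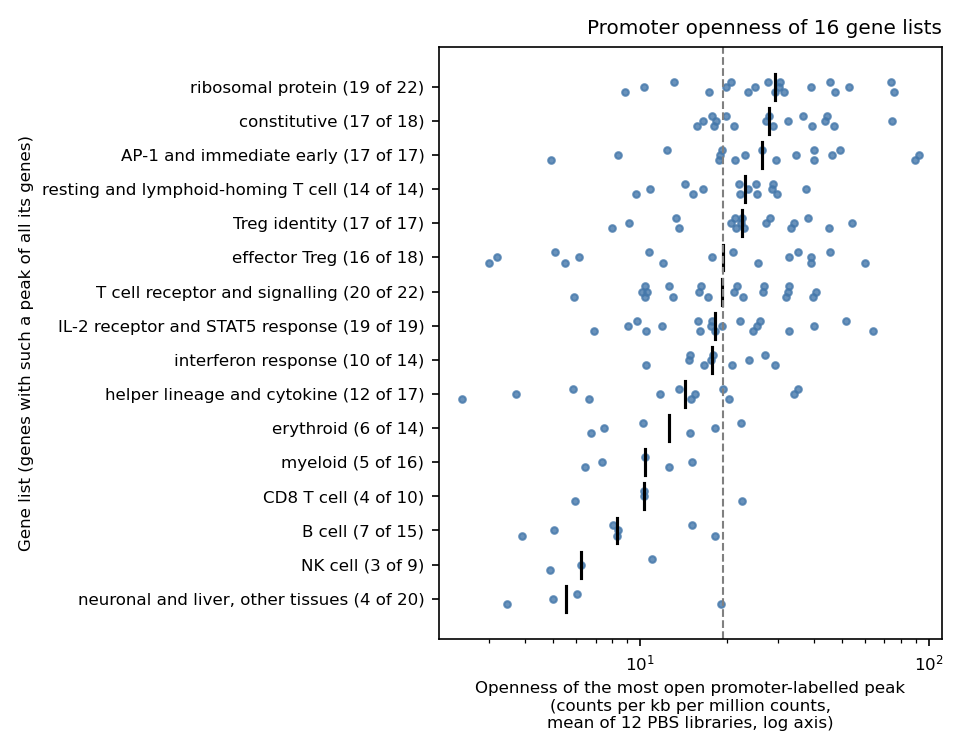
Promoter openness of the genes of the 16 lists, with 1 point for each gene at its most open well-mapped promoter-labelled peak, on a log axis in counts per kb per M counts. Black bars mark the median of each list, and the dashed line marks 19.3, the median over 15991 genes, and the lists of other cell types lie mostly to its lower side.

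Promoters of genes that mark other cells of the spleen were below the all-gene median by the median of each list. The B cell list had a median promoter openness of 8.29 over 7 of 15 genes, and the CD8 T cell list 10.3 over 4 of 10. The NK cell list had 6.25 over 3 of 9, the myeloid list 10.4 over 5 of 16 and the erythroid list 12.6 over 6 of 14. None of the 7 B cell, 3 NK cell and 5 myeloid genes reached the median of all genes, and 1 CD8 gene and 1 erythroid gene did. No peak of the table was assigned to the defining markers Ms4a1, Ncr1, Csf1r, Adgre1, Mpo or Alas2. Cd8a had only a peak at its 3' end, with an openness of 4.30, but Cd8b1 had a promoter peak of 22.5 ± 12.4. Peaks of these genes outside promoters were in part as open as the Foxp3 peaks. The most open was at 25.7 ± 5.95 for Bank1 and 25.5 ± 5.19 for Cd74 (B cell list), at 25.1 ± 6.29 for Fcgr3 (myeloid list) and at 22.6 ± 11.2 for Hbb-bt (erythroid list). Their part in the results was not tested. Sums over the promoters of a list differ in the number of genes and serve only to compare libraries. The Treg identity list ranged from 312 to 611 in single libraries, the B cell list from 39.3 to 92.0, the CD8 list from 30.9 to 79.5 and the NK list from 14.6 to 30.7. The myeloid list ranged from 34.1 to 67.8, the erythroid list from 62.6 to 101 and a list of neuronal, liver and other tissue genes from 26.1 to 38.4. That last list had promoter peaks for 4 of 20 genes, with a median of 5.52. In bulk ATAC-seq, open chromatin of a few other cells and weakly open chromatin of many cells cannot be told apart.

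The number of open regions per gene was uneven. After overlapping peaks were merged, a gene with a well-mapped peak had a median of 2 regions, and 10500 of 24831 genes had 1. Gm20388 had 223 regions, Fgfr2 98, Foxp1 69, Gm20696 57, Fhit 56, Pde4d 54, Wwox 53 and Bach2 46. Most of these regions lay in introns, 53 of 69 for Foxp1 and 51 of 56 for Fhit. The numbers were not set against gene length, and its part in them was not tested. Foxp1 and Bach2 encode factors that hold T cells in a resting state. On the fixed lists, the Treg receptor gene Nrp1 had 37, the kinase gene Fyn 31, Ikzf2 29 and Bcl2 28.

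The ranking of peaks was then compared between libraries. The Spearman correlation of openness over all peaks was 0.465 to 0.808 for the 12 pairs of libraries of the same time (median 0.680). For the 54 pairs of different times it was 0.377 to 0.861 (median 0.673). Peaks are not independent replicates, so the test was run over libraries: same-time pairs were higher by 0.0149 on average, with a one-sided exact permutation p of 0.253 over all 15400 assignments of the 12 libraries to 4 times. Without 168 h replicate 4 the difference was 0.0592 (exact permutation p = 0.0281). The library that stood furthest apart was 168 h replicate 1, the one with the fewest counts, with a mean correlation of 0.516 to the others. The highest mean was that of 72 h replicate 1, 0.730. Between the mean profiles of the times, the correlation was lowest for 16 h and 168 h, 0.769, and highest for 0.75 h and 16 h, 0.860.

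**Figure D3:**
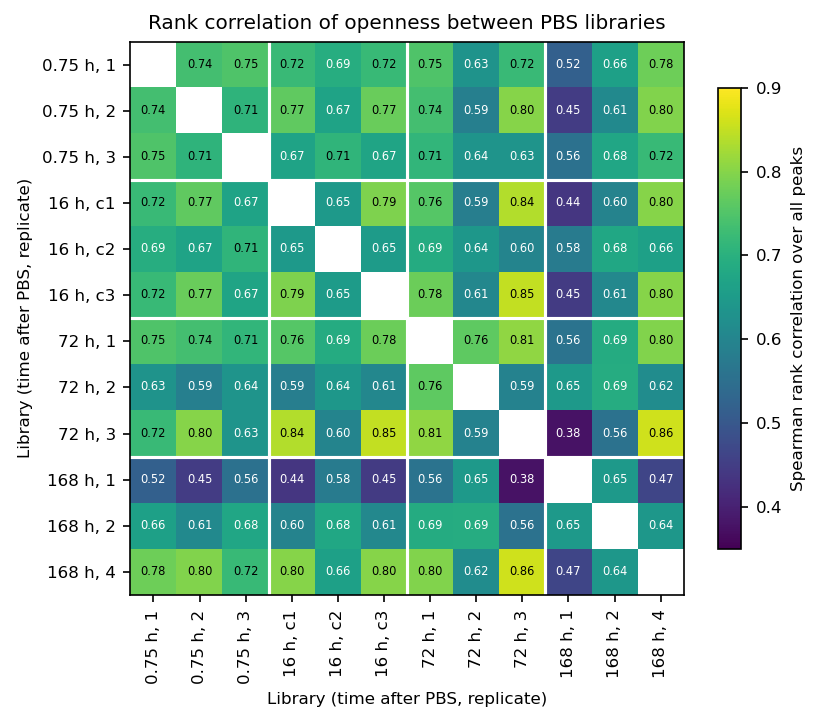
Spearman correlation of openness over all peaks for each pair of the 12 PBS libraries, ordered by collection time. Pairs of one time (0.465 to 0.808) and pairs of different times (0.377 to 0.861) cover a similar range, and 168 h replicate 1 has the lowest values.

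Shares of counts by peak label moved little with time. With the largest peak left out, promoter-labelled peaks held 62.2% ± 0.83 of the counts at 0.75 h, 64.3% ± 0.81 at 16 h, 61.8% ± 2.74 at 72 h and 59.7% ± 2.38 at 168 h (SD, n = 3 each). Single libraries lay between 58.1% and 65.2%. The means spanned 4.61 percentage points, with an exact permutation p of 0.0889, or 0.111 after Benjamini-Hochberg adjustment over the 5 labels. Intergenic peaks held 14.1%, 13.4%, 15.4% and 16.0% at the 4 times (exact permutation p = 0.0715, adjusted 0.111). Without 72 h replicate 2 the promoter span had an unadjusted exact permutation p of 0.037, and without 168 h replicate 4 it was 5.98 points with 0.0305. Over well-mapped peaks alone the promoter shares were 59.1%, 60.8%, 59.9% and 57.1% (exact permutation p = 0.229).

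The variation of single peaks within and between times was described next. Among the 16422 peaks of mean log2 CPM of at least 3, the median SD within a time was 0.315 and the median SD of the 4 time means was 0.237 on the log2 scale. A mean of 3 libraries would spread by 0.182 from the within-time SD alone, so the time means spread more than that. The range of the time means had a median of 0.527, and 852 peaks (5.19%) had a range above 1. More open peaks, which also held more counts, were steadier. The median SD over the 12 libraries fell from 0.802 in the least open 10% of promoter peaks to 0.309 in the most open 10%, and from 1.00 to 0.435 for the other labels. The highest time mean was below 2-fold of the lowest for 77.9% of promoter peaks and 58.3% of the others.

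The steadiest promoter was that of Pcm1, which encodes a scaffold of centriolar satellites, at chr8:41239162-41240391. Its openness was between 54.2 and 71.1 in the 12 libraries (mean 62.4 ± 5.01), an SD of 0.085 in log2 CPM. Promoters of Vsig10l, Mapre2, Zfp715 and Jmjd7 with Mapkbp1 followed, with SDs of 0.088 to 0.101. Among the same peaks of mean log2 CPM of at least 3, the least steady lay near Ric8b (SD 1.71), Gm13191, Gm11407, Gm4076 and Marveld2 (1.31). Gm13191 ranged from 19.0 to 805 with the times overlapping. Marveld2, the gene of the junction protein tricellulin, was at 3.47 in 0.75 h replicate 2 and 1.29 in 168 h replicate 4, and between 14.0 and 25.8 in the other 10 libraries.

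The set of the 100 most open well-mapped peaks, 98 of them promoters in 74 separate regions, changed in part. Between 45 (0.75 h and 72 h) and 75 (72 h and 168 h) peaks were shared by the sets of 2 times, and 41 by all 4. The set of each library taken alone held 17 of them in common. A single library held 53 to 84 of the overall 100.

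**Figure D4:**
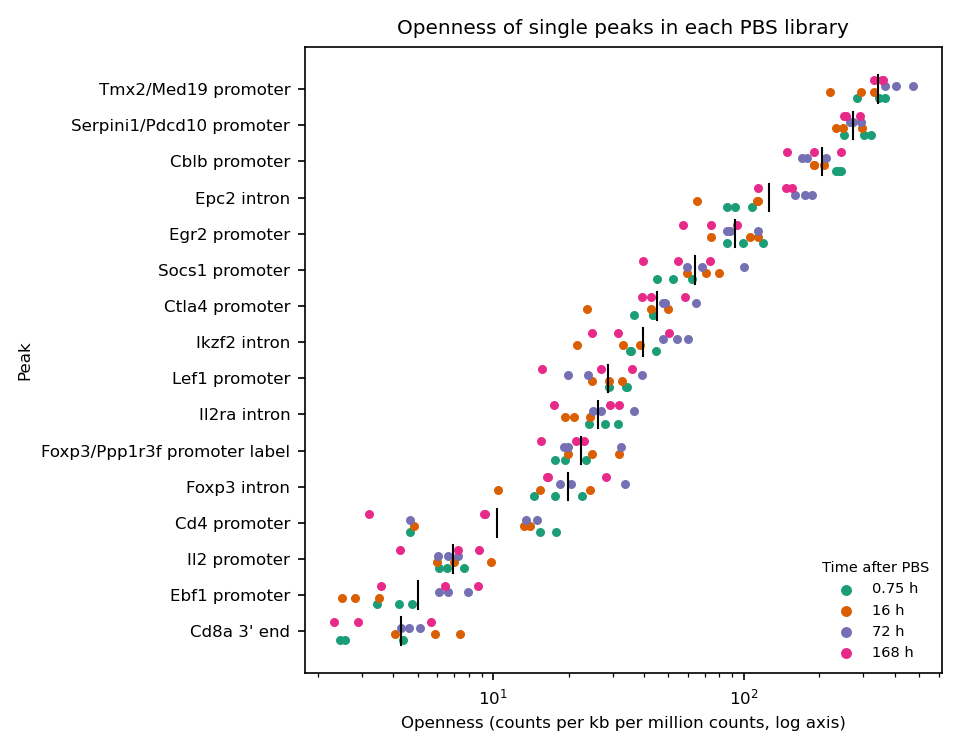
Openness of 16 peaks in each of the 12 PBS libraries on a log axis in counts per kb per M counts, with 1 point for each library, coloured by time, and a vertical bar at the mean of the 12. The libraries of the 4 times overlap at Foxp3 and Ctla4.

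Few peaks passed the tests between times, and changes can have been missed. In simulated counts, 200 peaks with a mean log2 CPM above 1 were changed 4-fold at 72 h. The test over the 4 times recovered 66% of them. The contrasts of 72 h minus 16 h and of 168 h minus 72 h recovered 58% each. Of 102747 peaks tested with edgeR's quasi-likelihood test, 7 (0.00681%) differed among the 4 times at an adjusted p under 0.05. Between 0.75 and 16 h 0 peaks passed (0% of those tested), and between 16 and 72 h 0 passed (0%), with 6091 and 5492 at an unadjusted p under 0.05. DESeq2 called 85 and 175 in those contrasts and 1708 over the 4 times, so the count depends on the tool. From 72 to 168 h, 8 peaks fell (0.00779% of those tested) and 1 rose (0.000973%). None of the peaks of the 16 gene lists passed in any of the 4 tests. Each list had at most 355 tested peaks, so with so small a share called among all peaks this does not set the listed genes apart. The count over the 4 times was 3 without 0.75 h replicate 3, 16 h c1 or 72 h replicate 1, was 0 without 168 h replicate 2, and was 13 without 16 h c2, 16 h c3 or 168 h replicate 4. From 72 to 168 h the count of 9 became 5 without 72 h replicate 1, 1 over well-mapped peaks alone, and 0 when only the libraries of those 2 times were fitted.

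Of the 9 peaks called from 72 to 168 h, the one with the smallest adjusted p lay 17427 bases from the nearest annotated start site, near Ric8b, a chaperone gene of G protein subunits, at chr10:85025900-85026387. Its openness was 202, 249 and 131 at 72 h and 21.9, 15.9 and 5.13 at 168 h, a change of -3.90 ± 0.40 on the log2 scale (SE, adjusted p = 8.1e-04). The other peaks that fell were assigned to Zdhhc3, Gm11407 (2 peaks), Gm4076, Gm22609, Gm11408 with Gm11410, and Gm49817. Their log2 fold changes lay between -3.97 and -2.12. Zdhhc3, the gene of a palmitoyl transferase, held an intron peak at chr9:123107282-123107471. Its openness was 35.5, 24.0 and 22.5 at 0.75 h, 46.4, 46.0 and 52.9 at 16 h, 84.2, 84.4 and 57 at 72 h, and 6.25, 9.08 and 1.53 at 168 h. For the promoter-labelled peak of Gm4076 the time means were 149 ± 48.0, 193 ± 17.8, 270 ± 53.1 and 36.5 ± 19.1 (n = 3 each). All 8 had their highest time mean at 72 h and their lowest at 168 h. Every one of the 8 peaks that fell shares 31-base words with the mitochondrial genome, over 8.95% to 37.4% of its words. Among all tested peaks the share with any such word was 0.0419%, or 43 peaks.

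The first 200 bases of the Ric8b peak, chr10:85025900-85026099 on the plus strand of GRCm38, show this. Capitals mark the bases that lie in runs shared with the mitochondrial genome of GRCm38, of 16299 bases. Over the whole peak 131 bases lie in 3 such runs, the longest of 54.
Ric8b peak: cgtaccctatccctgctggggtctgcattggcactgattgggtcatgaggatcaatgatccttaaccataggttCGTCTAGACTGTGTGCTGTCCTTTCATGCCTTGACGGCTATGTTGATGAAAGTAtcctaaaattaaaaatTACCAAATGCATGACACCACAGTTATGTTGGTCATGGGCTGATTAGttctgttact
Of the 43 tested peaks with such words, 30 were lower at 168 h than at 72 h by value, with a median log2 fold change of -0.97, against 0.01 for all tested peaks. In the 7 of them with at least 50% of their words mitochondrial the median was -0.26, with values from -1.44 to 0.42 and none called. In the other 36 it was -1.23, and 8 were called. The libraries of mice given the mIL-2/CD25 fusion protein, which share the dates of the PBS libraries, moved the same way at all 9 called peaks. Their titles at 168 h name runs as well. For the 8 that fell, their log2 differences lay between -4.12 and -2.43. Over all tested peaks the sign was the same for 67.4%. Why these peaks moved with collection time, date or the naming of runs was not tested.

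The peak that rose, chr16:98107477-98107582, lies 25079 bases from the start of A630089N07Rik. It had an openness of 42.3, 48.6 and 34.4 at 72 h and 185, 204 and 279 at 168 h, a rise of 2.40 ± 0.32 on the log2 scale (SE, adjusted p = 0.0082). At 0.75 and 16 h its 6 libraries lay between 26.6 and 57.9. When well-mapped peaks alone were tested, 0 rises were called from 72 to 168 h. An intron peak of Cldn34d, of the claudin family, passed only the test over the 4 times (adjusted p = 0.041). With 66.2% unique words, the Cldn34d peak lies outside the well-mapped set. Its mean openness was 341 ± 44.1, 277 ± 33.9, 146 ± 13.4 and 246 ± 28.7 in time order (n = 3 each), and its 72 h libraries, 133 to 160, lay below all others.

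**Figure D5:**
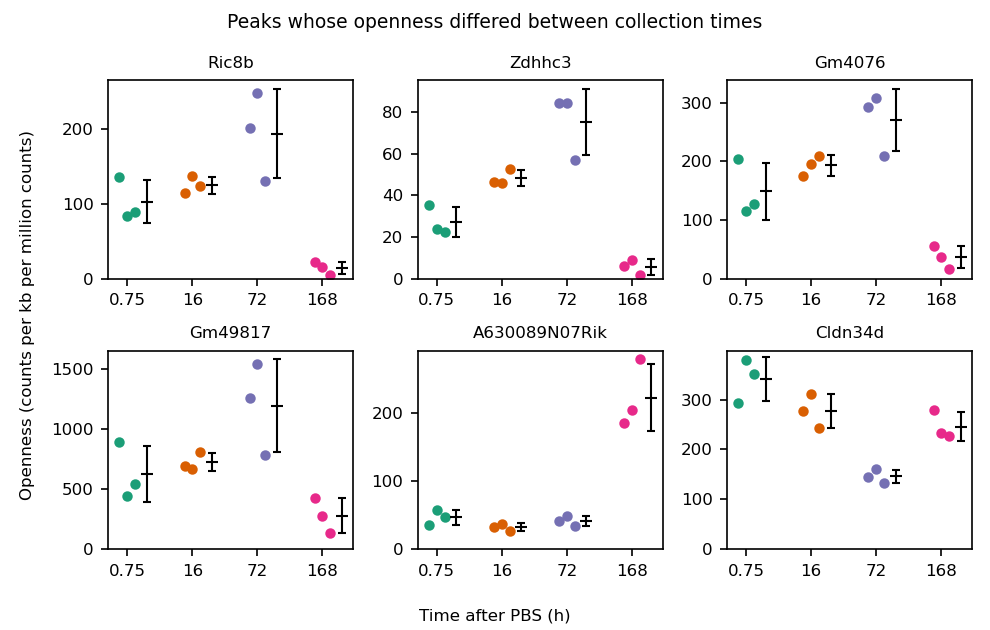
Openness in each of the 12 PBS libraries, by collection time, of 6 of the 10 peaks that passed the test over the 4 times or that of 168 h minus 72 h, in counts per kb per M counts, with the mean ± SD of the 3 libraries beside the points. Ric8b, Zdhhc3, Gm4076 and Gm49817 were lowest at 168 h, A630089N07Rik was highest there with 185 to 279, and Cldn34d was lowest at 72 h.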

How the data were processed

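Per the series design text and the submitters' processing notes, the authors mapped reads to GRCm38 with BWA, called peaks with MACS2 2.1.2 and kept those reproducible between 2 pseudo-replicates of each sample. The sources used here do not name the counter, a duplicate filter or how peaks were merged. The deposited table holds unnormalized read counts per peak. One of its columns, listed under another unit because commas inside the gene names of 9561 lines shift it, also holds counts as deposited by the authors, and each line was read from its right end. Groups came from the sample titles. The labels' protocol gives 0.75 h for all samples, so 16, 72 and 168 h rest on titles and column names, and 0 per-sample columns were left unmapped. Technical replicates and runs named in the labels are not separate in the table. Among the sample titles, only those at 168 h name 2 runs.

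Openness was computed as defined above. Unique and mitochondrial sequence was counted in 31-base words of GRCm38, start sites came from GENCODE M21, and promoter sequence from RefSeq tables of GRCm38.p6. Counts of the 12 PBS libraries were fitted in R 4.3.3 with edgeR 4.0.16 (TMM, filterByExpr with a minimum count of 10, quasi-likelihood F test, Benjamini-Hochberg over 102747 peaks, 8 residual degrees of freedom, biological coefficient of variation 44.6%). A prior count of 2 was used for log2 CPM. DESeq2 1.42.0, other scalings, covariates and sets of peaks, a replicate block and leaving out each library were alternatives. The scripts were tested on simulated data. Tables and figures used Python 3.11.15 with pandas 2.3.3, scipy 1.17.1 and matplotlib 3.10.9.

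Named were the 10 most open promoter-labelled peaks and the 10 most open of the other labels, 1 per gene, with at least 50% unique words, the 5 least open of each kind, and the 5 repeated peaks with most counts. Also named were the 2 most and 2 least open genes of each list (not all are printed), the 5 steadiest and 5 least steady peaks, up to 5 rises and 5 falls per contrast with a mean log2 CPM of at least 1, and fixed Treg and marker genes. The ranking with at least 90% unique words, the Cblb intron peak and genes with many regions were added after the values were seen. The members and the gene lists were chosen with earlier results of these data known.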

Additional observations from a re-analysis of the deposited data

How the results depend on the processing

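Time-related counts of called peaks depended on the test and its covariates. Over the 4 times, 7 peaks became 12 when scaled by library totals, 677 with the log2 library total as a covariate, 412 with the share of counts near start sites as a covariate, 1 over well-mapped peaks alone and 1708 with DESeq2. From 72 to 168 h, 9 became 21 with the log2 total, 17 with the start site share, 1 over well-mapped peaks, 43 with DESeq2 and 0 when only the libraries of those 2 times were fitted. The contrast of 16 and 0.75 h gave 10, 64 and 85 peaks with the log2 total, the start site share and DESeq2, and that of 72 and 16 h gave 7 with the start site share and 175 with DESeq2, against 0. The cause was not tested. Leaving out each library in turn gave 0 to 13 over the 4 times, 5 to 10 from 72 to 168 h, and 0 in both other contrasts. It gave a span of the promoter share of 3.82 to 5.98 percentage points and a difference of rank correlations of 0.00416 to 0.0592. The 100 most open peaks shared 62 members with the set ranked without the correction for width and 58 with the well-mapped set. The start site share and the well-mapped set were chosen after seeing the data. With the replicate number as a block, over the 0.75, 72 and 168 h libraries, 7 and 8 peaks were called, against 11 and 6 in the same libraries without it. Of these, 3 and 5 with the block, and 6 and 6 without it, were also called in the fit of all 12 libraries. Same-numbered libraries deviated from their group means with correlations of -0.28 to 0.21 (7 pairs), and differently numbered ones with -0.56 to 0.62 (20 pairs). Deviations from a mean of 3 libraries constrain each other, so these values cannot decide whether the numbers pair the libraries. Without the library of 7.39 M counts, 168 h replicate 1, the counts were 7 and 9, of which 5 and 9 were also called in the fit of all 12 libraries.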

Other observations

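Some genes that are on none of the lists held many open regions. Tox, which encodes a factor of long-stimulated T cells, had 42 regions, the most open of them at 51.0 ± 12.4 (mean and SD of 12 libraries). Inpp4b, the gene of a phosphoinositide phosphatase, had 45 regions, and Itpr1, that of a calcium channel of the endoplasmic reticulum, had 40 with a most open peak of 108 ± 17.9. Fhit, whose gene spans a fragile site, had 56 regions and a most open peak of 185 ± 32.2.

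The pair of libraries with the highest rank correlation, 0.861, came from different times. They were 72 h replicate 3 and 168 h replicate 4, which had the promoter over intergenic ratios 3.02 and 2.44 and totals of 59.6 and 33.7 M counts. The lowest correlation, 0.377, was between 72 h replicate 3 and 168 h replicate 1, with ratios of 3.02 and 1.36 and totals of 59.6 and 7.39 M. Within 168 h, replicates 1 and 4 had 0.465. These pairs were picked after their values were seen, and the part of depth in their order was not tested.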
